A study of Mus musculus with 8 samples.

Results

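Respiratory complex I was followed here through its nuclear genes, those whose protein-coding symbol begins with Nduf. Of the 37991 genes in the deposited table, 46 met this rule: 36 encode subunits of the complex, 8 encode the Ndufaf assembly factors, and 2 are Ndufa4 and its paralog Ndufa4l2. A further 4 Nduf symbols belong to processed pseudogenes, which had between 0 and 2 reads in any library and were left out. All 46 members passed the filter on low counts and were tested. RNA had been sequenced from isolated adult mouse heart muscle cells of the alpha-MHC MERCREMER MADM background, in 4 libraries of single colored and 4 libraries of double colored cells. Hearts of both groups had been injected with adenovirus encoding 4 cell cycle genes, and cells were taken 2 weeks later. The labels give single colored cells as having gone through the cell cycle after this treatment and double colored cells as not having done so. The alpha myosin heavy chain promoter of the Cre transgene acts in cardiomyocytes, and MADM (mosaic analysis with double markers) colors the cells by recombination between homologous chromosomes. The labels state neither the age of the mice nor whether the 8 libraries came from separate animals, so p-values reflect the variation among libraries, part of which may be technical.

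Complex I is the entry point of the respiratory chain. It takes electrons from NADH in a matrix arm that carries a flavin and iron-sulfur clusters, passes them to ubiquinone, and pumps protons through a membrane arm. The core of the membrane arm is encoded by the mitochondrial genome, and the core of the matrix arm and all accessory subunits by nuclear genes. Assembly factors bind intermediates while the complex is built and are not part of the finished enzyme. Heart muscle is rich in mitochondria, and draws most of its ATP from oxidative phosphorylation.

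The libraries held 23820700 to 30082278 counted reads. Mitochondrially encoded genes took 77.5 to 85.9% of all reads in the single colored libraries, against 84.2 to 88.3% in double colored ones (exact permutation test over libraries, two-sided, p = 0.143), leaving 3750616 to 6112595 and 3503353 to 3850391 nuclear-encoded reads. Within same-numbered pairs the mitochondrial share was lower in the single colored library in 4 of 4 (p = 0.125 by a two-sided exact paired permutation test, which cannot give less with 4 pairs). The share of cardiomyocyte markers was also lower in 4 of 4 pairs. Subunit genes had between 34 and 4013 reads in a library and assembly factors between 18 and 597. Cardiomyocyte markers fitted the labelled cell type: 14 of 15 were detected in every library, with 11.7 to 17.8% and 17.1 to 20.4% of nuclear-encoded reads in single and double colored cells. The remaining marker, Tnnc1, was listed at 0 in all 8.

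Complex I genes had lower normalised read counts (CPM) in single colored cells on the TMM scale, which levels most genes between libraries. No single member passed the main test, which used the filter on low counts, all 8 libraries and no replicate block. The direction holds relative to the median gene: the subunit median turned to 0.09 with library totals alone and to 0.01 with cardiomyocyte marker totals. Of the 46 members, 45 had a negative log2 fold change, single over double colored, and the median was -0.35, beside 50.6% negative and a median of -0.01 over all 12466 tested genes. The median corresponds to 78.5% of the double colored level. None had an adjusted p under 0.05 (edgeR quasi-likelihood test, Benjamini-Hochberg over all genes, smallest 0.109), where 0.16% of all genes were called lower and 2.32% higher, 2.48% in all. DESeq2 and limma-voom also called none. At an unadjusted p under 0.05, 11 members were lower and none higher, against 6.1% and 9.02% of all genes. In 8 members, all subunits, the 4 single colored libraries lay below the 4 double colored ones, which held for 3.76% of all genes; none lay wholly above, which 5.37% of all genes did. With the replicate number as a block, which pairs libraries of the same number, 5 members fell: Ndufaf4, Ndufs4, Ndufs1, Ndufs6 and Ndufv3, and none rose, where 2.57% of all genes fell and 4.97% rose. Members vary together across libraries, so these counts are not of independent genes.

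The size of the difference varied between libraries. Single colored replicate 1 held the lowest of the 8 values for 41 of the 46 members and lay below all double colored libraries for every one of the 36 subunits, whereas single colored replicates 2, 3 and 4 did so for 21, 31 and 11 subunits. Within the 4 numbered pairs the median subunit difference on the log2 scale was -0.92, -0.17, -0.33 and -0.08. All 36 subunits were lower in the single colored library of pair 1, 31 in pair 2, 34 in pair 3 and 23 in pair 4. Without single colored replicate 1 the median subunit log2 fold change was -0.21 instead of -0.35, still with 36 of 36 negative. In that fit, which had no block, the 5 members called with the block stood at -0.45, -0.32, -0.27, -0.33 and -0.47 for Ndufaf4, Ndufs4, Ndufs1, Ndufs6 and Ndufv3. Their edgeR adjusted p-values there were 0.233 to 0.374. The block was not fitted without this library, so whether those calls hold without it was not tested. Over the subunits the median coefficient of variation between single colored libraries was 25.3%, and 11.9% without replicate 1; among double colored libraries it was 8.83%.

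**Figure D1:**
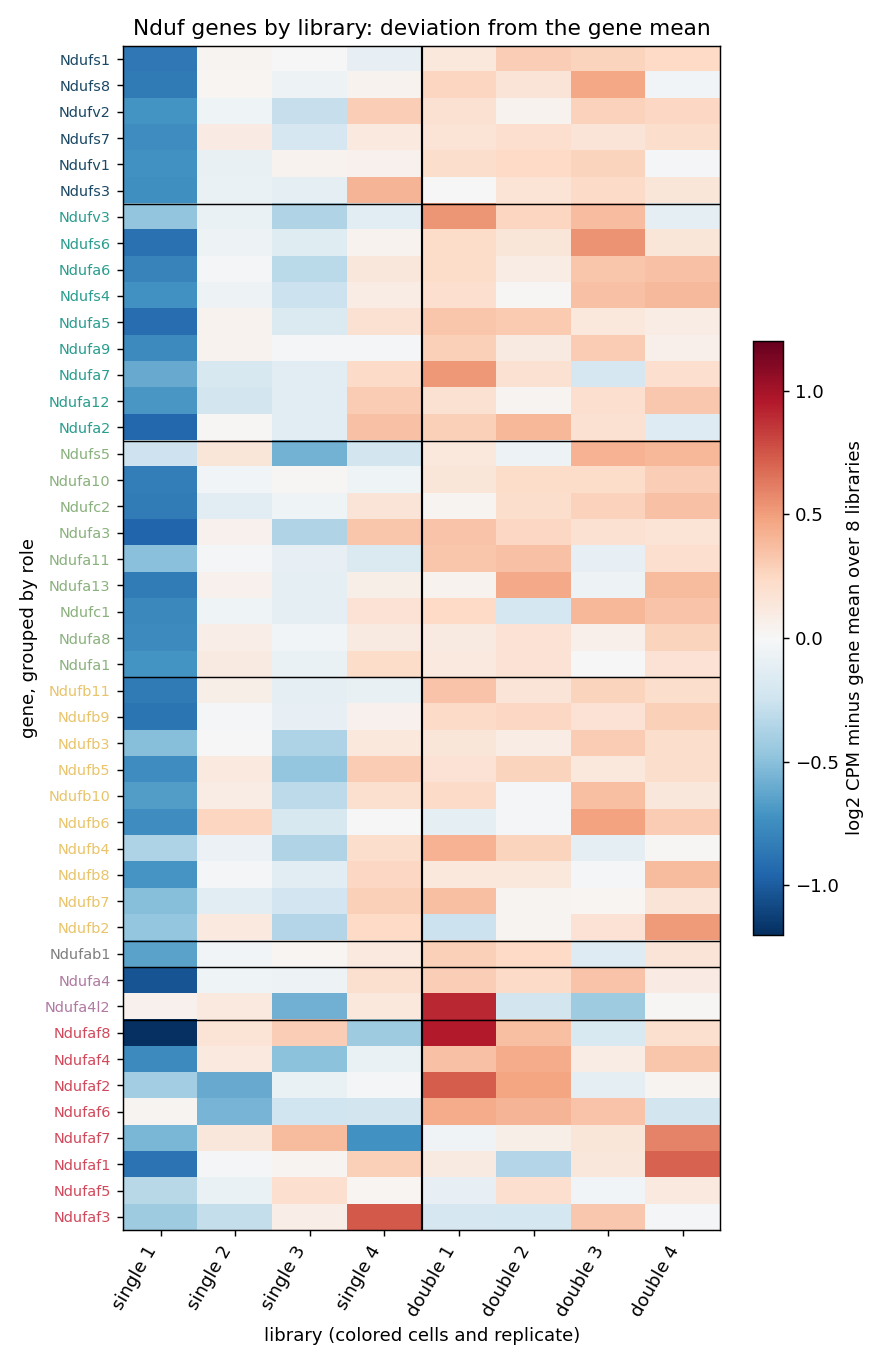
Each of 45 Nduf genes (rows, grouped by role) in each of 8 libraries (columns, single colored left), as log2 CPM minus the gene's mean over the libraries. The column of single colored replicate 1 is blue, that is low, for nearly all subunits, and the 4 double colored columns are mostly red.

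The 7 core subunits of the matrix arm all had negative values, with a median log2 fold change of -0.33. Ndufs1 (ENSMUSG00000025968, mm9 chromosome 1, 63190170 to 63223396), an iron-sulfur subunit on the electron path, had 31.3, 58.1, 56.5 and 53 CPM in single colored replicates 1 to 4, against 61.9, 69.9, 68.6 and 67.2 CPM in double colored ones. The groups did not overlap, and replicate 1 was the lowest by far. Its log2 fold change was -0.43 ± 0.18 (SE; 95% interval -0.81 to -0.05; edgeR adjusted p = 0.268, and 0.0405 with the replicate block). Ndufs8, whose iron-sulfur clusters lie near the ubiquinone site, had a log2 fold change of -0.39 ± 0.19, and Ndufv1, which binds NADH and the flavin, one of -0.33 ± 0.17 (edgeR adjusted p = 0.345 and 0.382). Ndufv2, which carries an iron-sulfur cluster beside the flavin site, Ndufs7, which carries the last cluster before ubiquinone, and Ndufs3 lay between -0.33 and -0.22.

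Accessory subunits of the matrix arm included 3 of the 5 members called with the replicate block. Ndufv3 (ENSMUSG00000024038, mm9 chromosome 17, 31657060 to 31668266), at the NADH-oxidizing end, had 10.8, 14.3, 11.7 and 13.8 CPM in single colored replicates 1 to 4 and 21.8, 18, 19.5 and 14 CPM in double colored ones. The groups overlapped through double colored replicate 4 alone, and the log2 fold change was -0.54 ± 0.16 (95% interval -0.88 to -0.19; edgeR adjusted p = 0.109, 0.0441 with the block). Ndufs6 (ENSMUSG00000021606, mm9 chromosome 13, 73457286 to 73465990), a zinc-binding subunit, had 10.8, 19.3, 18.1 and 20.7 CPM in single colored libraries, against 23.4, 22.3, 29.2 and 22.2 CPM in double colored ones, with no overlap. Its log2 fold change was -0.50 ± 0.19 (edgeR adjusted p = 0.202, 0.0411 with the block). Ndufs4 (ENSMUSG00000021764, mm9 chromosome 13, 115078003 to 115178302), whose loss in mice gives a model of Leigh syndrome, stood at 19.9, 31.4, 27.4 and 34.8 CPM in single colored libraries, against 37.7, 33, 41.7 and 43 CPM in double colored libraries. Single colored replicate 4 reached above double colored replicate 2, and the log2 fold change was -0.46 ± 0.17 (edgeR adjusted p = 0.204, 0.0388 with the block). The median of the 9 genes of this group was -0.38, and all 9 were negative.

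Accessory subunits of the membrane arm were lower to a like extent. The 9 genes of its proximal part had a median log2 fold change of -0.39, and the 10 of its distal part one of -0.32, with every gene negative and none past the threshold. In the proximal part Ndufa10 averaged 66.4 ± 16 CPM in single colored and 88.2 ± 3.79 CPM in double colored libraries (SD, 4 libraries each), Ndufa11 9.79 ± 1.37 CPM and 12.9 ± 1.75 CPM, and Ndufc2 11.8 ± 3.13 CPM and 15.5 ± 1.42 CPM. Their log2 fold changes were -0.41 ± 0.18, -0.39 ± 0.17 and -0.40 ± 0.19. In the distal part Ndufb9 (ENSMUSG00000022354, mm9 chromosome 15, 58765365 to 58771044) had 30.8, 55.8, 52.7 and 58.3 CPM in single colored replicates 1 to 4 and 66, 67.2, 63.7 and 69 CPM in double colored ones, without overlap (log2 fold change -0.43 ± 0.18, edgeR adjusted p = 0.269). The X-linked Ndufb11 also showed no overlap, with 14.8 ± 3.70 CPM in single colored and 20.3 ± 1.11 CPM in double colored libraries, and Ndufb3 had a log2 fold change of -0.36 ± 0.17. Rbm10, encoded on the other strand, covers 12.9% of the exon bases of Ndufb11, and without a known strand setting their reads cannot be told apart there.

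Some members have roles beyond complex I. Ndufab1, the mitochondrial acyl carrier protein, sits in both arms and also serves fatty acid synthesis. Its level was 7.56 ± 1.61 CPM in single colored and 8.95 ± 1.15 CPM in double colored libraries (log2 fold change -0.25 ± 0.19, edgeR adjusted p = 0.616). Ndufa4 was first assigned to complex I and is now placed with cytochrome c oxidase. It had 32, 63.3, 62.8 and 75 CPM in single colored replicates 1 to 4 and 80.6, 76.9, 83.3 and 70.2 CPM in double colored ones. The groups overlapped between single colored replicate 4 and double colored replicate 4, and the log2 fold change was -0.42 ± 0.21 (edgeR adjusted p = 0.360). Ndufa4l2, a paralog induced in hypoxia, was near the detection limit in both groups, with 72 reads in the single and 61 reads in the double colored libraries together. Its log2 fold change of -0.22 ± 0.48 has an interval of -1.22 to 0.79, too wide to give a direction.

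Assembly factors and subunits had similar medians and different scatter. The 8 assembly factors had a median log2 fold change of -0.41, with 7 negative and 1 positive, and the 36 subunits one of -0.35, all negative. The standard deviation between genes was 0.26 among assembly factors and 0.08 among subunits, and the median standard error of a gene was 0.27 and 0.19. The spread between subunits was thus smaller than the error of a single subunit. Whether the classes differ was not tested. In summed raw reads there were 53.4, 47.1, 47 and 45.8 assembly factor reads per 1000 subunit reads in single colored replicates 1 to 4, against 51.7, 51.5, 44 and 51.7 in double colored ones. The ranges overlapped, and the means were 48.3 ± 3.41 and 49.7 ± 3.81 (SD, n = 4 each).

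Ndufaf4 (ENSMUSG00000028261, mm9 chromosome 4, 24825230 to 24832148) had the second-smallest p of all members and the lowest with the replicate block. Together with Ndufaf3 it acts on the ubiquinone-binding part of the matrix arm. Ndufaf4 had 11.4, 20.8, 13.7 and 18.2 CPM in single colored replicates 1 to 4 and 24.6, 26.3, 20.5 and 24.3 CPM in double colored ones. Single colored replicate 2 lay just above double colored replicate 3, and the other 3 single colored libraries lay below all double colored ones. Its log2 fold change was -0.58 ± 0.18 (95% interval -0.96 to -0.20; edgeR adjusted p = 0.113, 0.0107 with the block). It also passed with no filter (adjusted p = 0.0360) and without single colored replicate 2 (0.0485), but in no other setting. Its partner Ndufaf3 was the member with a positive value, at 2.70, 2.97, 3.83 and 6.03 CPM in single colored libraries, against 3.14, 3.14, 4.54 and 3.59 CPM in double colored libraries. That value rested on single colored replicate 4, the highest of the 8, and the log2 fold change of 0.10 ± 0.27 became -0.20 without it.

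Ndufaf2, which acts late when the NADH-oxidizing part is added, had 3.77, 3.32, 4.76 and 4.96 CPM in single colored libraries, against 8.29, 7.0, 4.62 and 5.14 CPM in double colored libraries. The double colored replicates 1 and 2 were high and the other pair level with single colored cells (log2 fold change -0.58 ± 0.23, edgeR adjusted p = 0.232). Ndufaf1, which acts with Ecsit, Acad9 and Tmem126b on the membrane arm, had a log2 fold change of -0.29 ± 0.27. Ndufaf5, which hydroxylates an arginine of Ndufs7, had one of -0.08 ± 0.21, and Ndufaf8, which works with Ndufaf5, one of -0.59 ± 0.39. Ndufaf6 had one of -0.49 ± 0.37, and Ndufaf7, a methyltransferase, one of -0.33 ± 0.28. These 5 genes had overlapping groups and edgeR adjusted p-values from 0.524 to 0.911, and the intervals of all 5 include 0. Depth limits what they can show: Ndufaf6 and Ndufaf8 had at most 60 reads in a library.

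**Figure D2:**
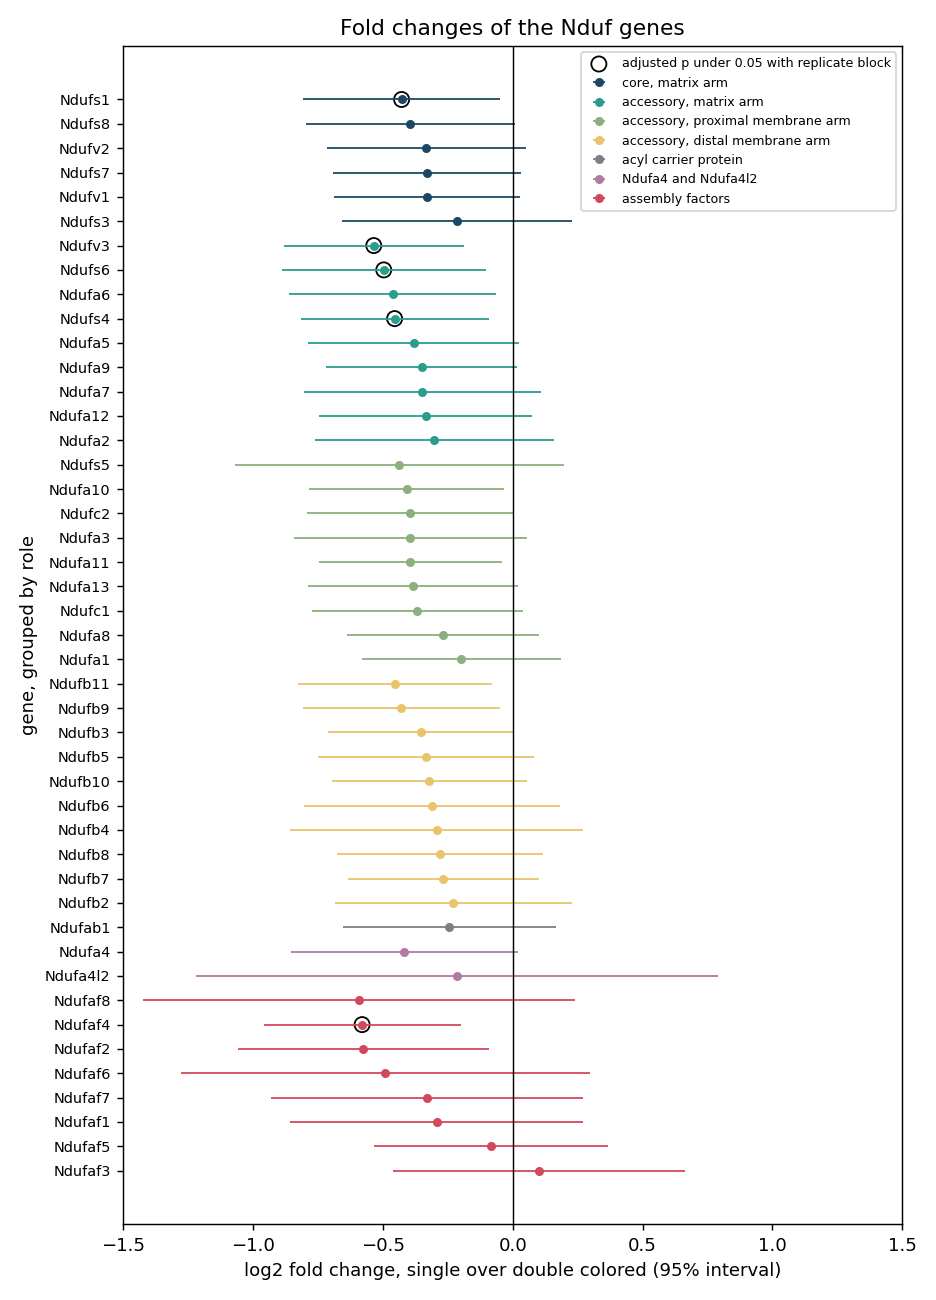
Log2 fold changes, single over double colored, of 45 Nduf genes (rows, grouped and colored by role) with 95% intervals. All 35 subunits shown lie left of 0 within a narrow band from -0.54 to -0.20, the assembly factors scatter from -0.59 to 0.10, and rings mark the 5 genes with an adjusted p under 0.05 with the replicate block.

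Levels were compared between genes per exon length, as CPM per kb. Ndufa4 was highest, at 118 ± 37.4 CPM per kb in single and 158 ± 11.6 in double colored cells (SD, n = 4 each). Ndufb9 followed at 75.9 ± 19.4 and 102 ± 3.36. Lowest were Ndufa4l2 at 0.588 ± 0.122 and 0.679 ± 0.311 CPM per kb, Ndufaf6 at 0.637 ± 0.104 and 0.900 ± 0.174, and Ndufaf5 at 1.05 ± 0.159 and 1.11 ± 0.107. The median level of the assembly factors was 2.15 CPM per kb in single and 2.76 in double colored cells, and that of the subunits 13.5 and 17.6. Over all libraries, 25 of 36 subunits lay above the highest assembly factor, Ndufaf2. The subunits differed 74.2-fold in level from Ndufb9 down to Ndufab1. The deposited exon lengths take in all annotated isoforms, 6883 bases for Ndufab1 and 5628 for Ndufb2, so genes with long annotated exons may be placed too low.

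**Figure D3:**
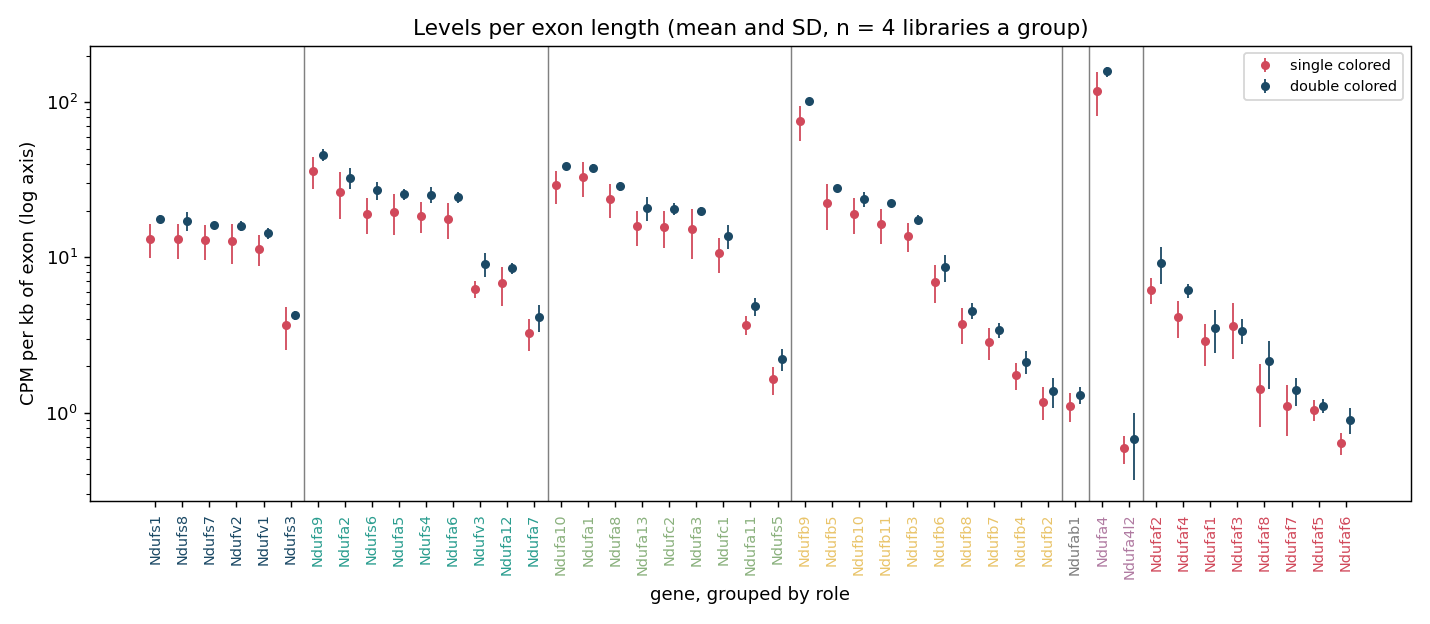
CPM per kb of exon (log axis) for 45 Nduf genes, grouped and colored by role, in single colored (red) and double colored (blue) cells, as mean and SD of 4 libraries each. Within each role the red points lie mostly just below the blue ones, and assembly factors sit below most subunits.

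Summed over the 36 subunits, complex I took 0.374, 0.575, 0.496 and 0.614% of the nuclear-encoded reads in single colored replicates 1 to 4, against 0.663, 0.608, 0.607 and 0.612% in double colored ones. Single colored replicate 1 was lowest, single colored replicate 4 lay among the double colored libraries, and the single colored library was the lower one in 3 of 4 pairs. The cardiomyocyte markers were also lowest in single colored replicate 1, with 11.7, 17.6, 17.8 and 16.6% in single and 17.1, 20.4, 19.2 and 20.0% in double colored libraries, and their median log2 fold change was -0.43 for 14 tested genes. Set against each other, there were 32.1, 32.7, 27.9 and 37 subunit reads per 1000 cardiomyocyte marker reads in single colored replicates 1 to 4 and 38.9, 29.7, 31.6 and 30.5 in double colored ones. These means were 32.4 ± 3.72 and 32.7 ± 4.20 (SD, n = 4 each), a difference far inside the spread between libraries, and the sign of that difference turned when single colored replicate 3 or double colored replicate 1 was left out. Titin, Ttn, is the main contributor to the marker sum, with 11974 of 23616 CPM in single colored libraries, against 14965 of 30345 CPM in double colored cells. In such bulk libraries, fewer cells of a type and less RNA per cell cannot be told apart.

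**Figure D4:**
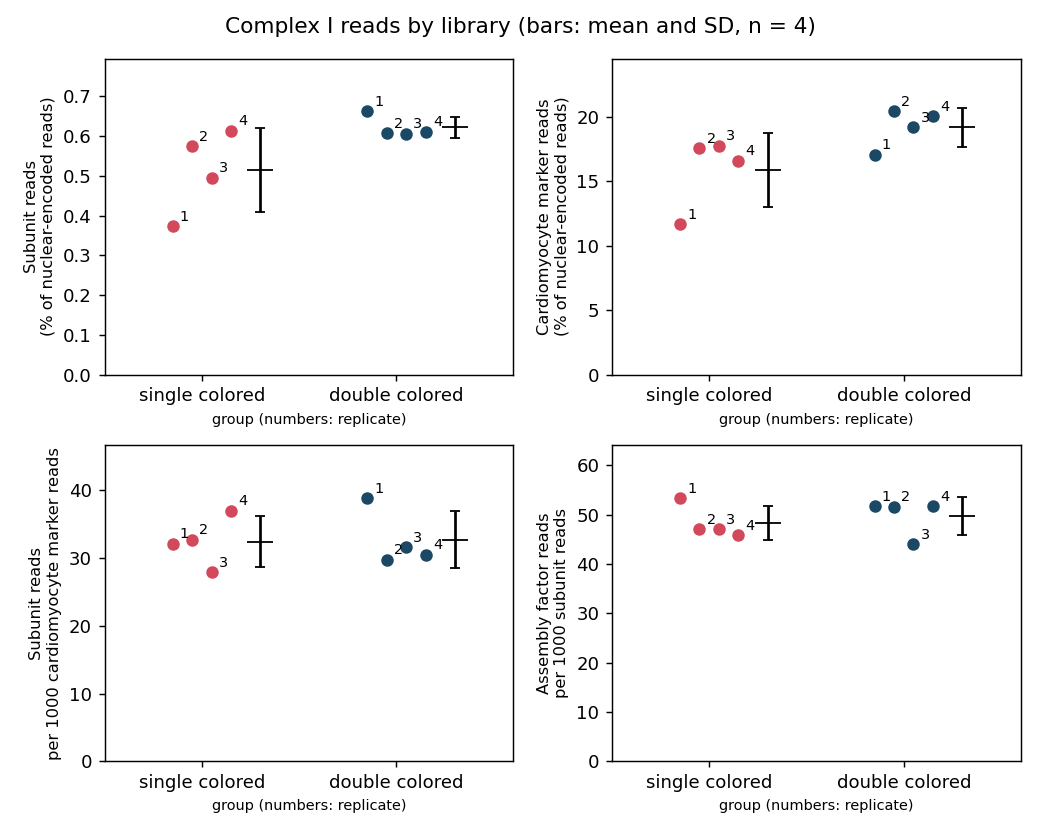
Summed reads per library in single colored (left) and double colored (right) cells, numbered by replicate, with mean and SD (n = 4): subunit reads and cardiomyocyte marker reads as a percent of nuclear-encoded reads, subunit reads per 1000 cardiomyocyte marker reads, and assembly factor reads per 1000 subunit reads. Single colored replicate 1 is low in the upper plots and lies among the other libraries in subunit reads per 1000 cardiomyocyte marker reads.

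Markers of other cell types differed between the same libraries. The 13 lymphocyte markers summed to 18.1 to 37 CPM in single colored libraries, against 1.96 to 5.15 CPM in double colored libraries, with 0 to 2 and 2 to 3 of them at 0. The 16 myeloid markers summed to 279 to 479 and 148 to 205 CPM, and the 10 fibroblast markers to 802 to 2280.3 and 341 to 868 CPM, with none at 0 in either list. Single colored replicate 1, the library lowest in complex I, was the highest of all 8 in each of these 3 sums. Not all markers followed their sums. Log2 fold changes were negative for 2 of 16 myeloid markers, Cd163 (-1.47, edgeR adjusted p = 0.0240) and Mrc1 (-0.40). They were also negative for 2 of 10 fibroblast markers, Tcf21 (-0.79) and Dcn (-0.10). Matrix genes weigh most in the fibroblast sum: Col1a1, Fn1 and Col3a1 averaged 288, 267 and 234 of 1331 CPM in single colored libraries. The 8 endothelial markers summed to 129 to 164 and 134 to 182 CPM, with 6 negative and 2 positive log2 fold changes, among the latter Vwf (0.62). The 7 smooth muscle and pericyte markers summed to 229 to 319 and 292 to 399.8 CPM. Rgs5 (-0.40) made up most of that sum, with means of 231 of 277 CPM in single and 305 of 345 CPM in double colored libraries. Of the 6 tested markers in that list, 4 were positive and 2 negative. The part of these markers in the complex I values was not tested.

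The direction depends on what complex I is scaled to. With library totals alone, which leave in the mitochondrial reads, the median of all genes moved to 0.48, and the medians of subunits and assembly factors were 0.09 and 0.08. Relative to the median gene they stood at -0.39 and -0.40, close to the -0.34 and -0.41 with TMM factors. With each library scaled to its cardiomyocyte marker reads, the medians were 0.01 for subunits, with 17 of 36 negative, and -0.01 for assembly factors, with 4 of 8 negative, while the median of all genes was 0.41. No member was called under either scaling.

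**Figure D5:**
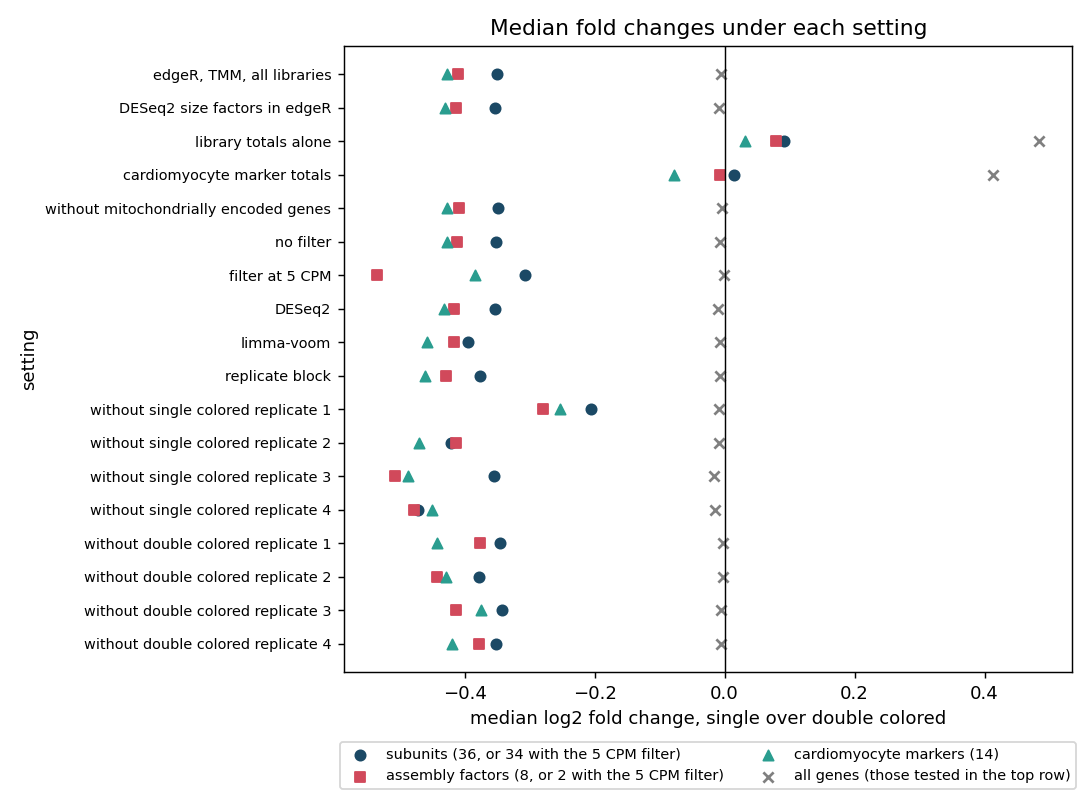
Median log2 fold change, single over double colored, of subunits, assembly factors, cardiomyocyte markers and all genes under each of 18 settings (rows). The medians of subunits, assembly factors and cardiomyocyte markers lie left of the median of all genes in every row. They are all above 0 only with library totals alone, and only the subunits are, slightly, with cardiomyocyte marker totals.

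Other genes of complex I behaved in part alike. Of 13 further assembly factors not named Nduf, 12 were tested (Coa1 was not matched and is not used here), none passed in either direction, and the median log2 fold change was -0.25, with 11 negative. Among them Tmem186 had -0.75 ± 0.38, Ecsit -0.11 ± 0.23, Acad9 -0.13 ± 0.25, Tmem126b -0.02 ± 0.20 and Timmdc1 0.11 ± 0.21. The mitochondrially encoded subunits had negative values in 6 of 6 tested genes, with a median of -0.57 and none past the threshold. With the replicate block 3 of them fell, mt-Nd3 (edgeR adjusted p = 0.00888), mt-Nd2 (0.0305) and mt-Nd1 (0.0348). mt-Nd5 averaged 15044 ± 4606 CPM in single colored libraries, against 21414 ± 1927 CPM in double colored cells, and mt-Nd4l had 3 reads in each group. Together these genes took 4.62 ± 0.609% of all reads in single colored and 5.05 ± 0.577% in double colored libraries (SD, n = 4 each), with overlapping ranges.

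The promoters of the members were searched for motifs of factors known to act on respiratory genes. RefSeq promoter windows on GRCm38.p6, from 250 bases before to 50 after a start site, were found for 40 of the 46 members and searched on both strands. The NRF1 motif, GCGCA followed by N and GCGC, occurred in 9 of 40 (22.5%), beside 11.3% of tested genes and 5.19% of all genes with a window. The YY1 motif ATGGCGG occurred in 10 of 40 (25%), beside 9.42% of tested genes and 4.69% of all genes. The ETS motif CCGGAAG occurred in 6 of 40 (15%), beside 19.8% of tested genes and 9.93% of all genes, and the ERR element AAGGTCA in 3 of 40 (7.5%), beside 3.80% of tested genes and 5.38% of all genes. The searched motifs do not contain one another. These shares are a description, and a match is not a shown binding site. Members with an NRF1 match had a median log2 fold change of -0.39 and those without one of -0.34, a gap smaller than the standard error of a single gene. Stretches of 60 bases upstream of the start site are given for 5 of the members with this motif, 2 called with the replicate block (Ndufaf4 and Ndufs6) and 3 subunits that were not, so that the motif can be seen in place. They run 5′ to 3′ on the gene's strand, with GRCm38.p6 coordinates and the match in capitals.
Ndufaf4, chr4:24897945-24898004, plus strand: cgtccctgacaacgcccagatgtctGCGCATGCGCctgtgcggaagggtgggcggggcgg
Ndufs6, chr13:73328483-73328542, minus strand: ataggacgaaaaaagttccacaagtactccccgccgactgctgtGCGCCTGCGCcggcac
Ndufa11, chr17:56717677-56717736, plus strand: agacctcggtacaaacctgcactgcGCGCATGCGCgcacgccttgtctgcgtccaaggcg
Ndufa8, chr2:36049339-36049398, minus strand: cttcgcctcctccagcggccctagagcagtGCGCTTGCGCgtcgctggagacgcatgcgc
Ndufs5, chr4:123718250-123718309, minus strand: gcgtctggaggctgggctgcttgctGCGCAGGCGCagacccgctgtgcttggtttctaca
Counted from the start site, the match begins at base -113 in Ndufaf4 and at base -16 in Ndufs6.

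Copies elsewhere in the genome can take reads from a gene. In the GENCODE vM21 transcripts, 8 of the 46 members had a pseudogene transcript that matched over at least 200 bases at 95% identity or more, among them Ndufs6, Ndufb11, Ndufb3, Ndufb4, Ndufs5 and Ndufab1, and their counts are therefore less certain. How reads that fit several places were counted is not stated. Genes on the opposite strand covered 39.0% of the exon bases of Ndufb6 (Smim27), 30.2% of those of Ndufa13 (Tssk6), 7.81% of those of Ndufb5 (Mrpl47) and 6.57% of those of Ndufs1 (Ino80dos), where the same limit applies. Ndufs5, a subunit with such a copy, had 52, 51, 42 and 35 reads in single and 42, 34, 50 and 51 in double colored libraries. In the authors' deposited table, where fold changes are given as double over single colored, 45 of the 46 members were lower in single colored cells. Of the 46, 5 had a raw p under 0.05, where 1535 genes did among all those given a raw p there. An FDR was given for 15711 genes. The smallest FDR of a member was 0.403, for Ndufaf4. Over all genes the smallest was 0.185, so 0 genes had an FDR under 0.05 in that table.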

How the data were processed

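RNA was measured in 8 libraries of mouse cardiomyocytes. The labels name the miRNeasy Micro Kit for RNA and NuGEN's Ovation System v2 for libraries. Per the submitters' processing notes, the tools were STAR 2.5.2b, featureCounts and Subread and the genome build was mm9; no strand setting is stated there. The deposited values are whole raw read counts per gene, not estimated counts, as the file headers and the values show, so no rounding was needed. The file also holds the authors' deposited log2 fold changes with p-values and FDR, whose test the sources used here do not name.

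Symbols and gene types came from GENCODE vM21 by Ensembl identifier for 32919 genes. Counts were tested with edgeR 4.0.16 in R 4.3.3 (filterByExpr with a minimum count of 10, TMM factors, robust quasi-likelihood F-test, Benjamini-Hochberg over 12466 genes at 0.05). Standard errors come from the F statistic and 95% intervals from the moderated degrees of freedom. CPM use TMM factors and are means ± SD (n = 4). DESeq2 1.42.0 and limma-voom 3.58.1 were alternatives, beside other scalings and filters, the replicate block and leaving out each library. The fit was tested on simulated data. Promoters are RefSeq's, and copies were found with blastn 2.17.0. Named members were any past adjusted p 0.05, the 3 with the smallest p in each role, all assembly factors, Ndufa4 and Ndufa4l2, and the 3 highest and lowest per exon length; others were named after their values were seen. The values of 1 of the 46 members are not reported singly here; it is in all counts, medians and sums.

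Members and lists were chosen with earlier results of these data known. Both groups carry replicate numbers 1 to 4. The deviation of a library from its group mean correlated with that of its namesake by 0.257, 0.126, 0.136 and 0.139 for numbers 1 to 4, all above 0.1, so the numbers were taken as pairs. The highest correlation across groups between unlike numbers was 0.0805, 0.0805, 0.108 and 0.108 for numbers 1 to 4. For numbers 3 and 4 it also lay above 0.1, not far below the namesake values, so the pairing is weakly shown there. The test without the block is nevertheless the one reported first; all standard errors, intervals and adjusted p-values ignore the pairing unless given as with the block. Taking the numbers as pairs rests on the correlations and on ids shared in the descriptions; what a number stands for is not stated.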

Additional observations from a re-analysis of the deposited data

Results flagged for a closer look

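Among 104 groups of 4 libraries examined, 8 held a library far from the other 3 by Dixon's test, where chance flags about 1 group in 20. Single colored replicate 1 stood apart for Ndufa10 at 42.6 CPM (others 72.9 to 76.4), for Ndufa9 at 31.2 CPM (others 52.1 to 54.5) and for Ndufs8 at 7.91 CPM (others 13.6 to 14.6). It also had the highest ratio of assembly factor to subunit reads of its group, 53.4 per 1000 (others 45.8 to 47.1). Single colored replicate 3 stood apart for Ndufa4l2 at 0.390 CPM (others 0.603 to 0.635). Double colored replicate 3 was high for Ndufs6 at 29.2 CPM (others 22.2 to 23.4) and low in assembly factor reads per 1000 subunit reads at 44 (others 51.5 to 51.7). Double colored replicate 1 had the highest subunit share of nuclear-encoded reads, 0.663% (others 0.607 to 0.612%).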

How the results depend on the processing

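The count of called members was 0 with TMM and became 5 with the replicate block and 1 with no filter, and it was 0 to 1 when a library was left out in turn. The count over all genes, 309, was 1390 with library totals alone, 805 with no filter (642 higher, 163 lower), 97 with a filter at 5 CPM, 553 with DESeq2 (461 higher, 92 lower), 180 with limma-voom and 939 with the replicate block (619 higher, 320 lower), and 134 to 304 when a library was left out, lowest without double colored replicate 4, with 142 without single colored replicate 1 and 191 without double colored replicate 2. The block changed no other call of a named member. Leaving out a library moved the subunit median between -0.47 and -0.21, the assembly factor median between -0.51 and -0.28, the single minus double difference in subunit reads per 1000 cardiomyocyte marker reads between -1.77 and 1.82, that in the subunit share between -0.141 and -0.0610 percentage points, and that in the mitochondrial share between -5.26 and -2.45. With library totals alone, which move the median of all genes to 0.48, the subunit and assembly factor medians were 0.0906 and 0.0798, and these log2 fold changes turned positive: Ndufa10 0.0484, Ndufa11 0.0905, Ndufa4 0.0160, Ndufa4l2 0.254, Ndufab1 0.228, Ndufaf1 0.136, Ndufaf5 0.410, Ndufaf6 0.0239, Ndufaf7 0.165, Ndufb3 0.0805, Ndufb9 0.0179, Ndufc2 0.0506, Ndufs1 0.0261, Ndufs8 0.0450 and Ndufv1 0.133. With cardiomyocyte marker totals the medians were 0.0139 and -0.00721, and those that turned were Ndufa4l2 0.177, Ndufab1 0.108, Ndufaf1 0.0531, Ndufaf5 0.306, Ndufaf7 0.0365, Ndufb3 0.0340 and Ndufv1 0.0216. When a library was left out, Ndufaf3 ran from -0.20 (without single colored replicate 4) to 0.24 and Ndufa4l2 from -0.37 to 0.15 (without double colored replicate 1). The cause of these turns was not tested. The paired test of the mitochondrial share and the coefficients of variation without a library were chosen after seeing the data; the mean paired difference was -4.10 percentage points. With the filter at 5 CPM 34 subunits and 2 assembly factors were left. Read depth limits Ndufa4l2, Ndufaf6, Ndufaf8, Ndufs5 and Ndufb4.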
